A study of Mus musculus with 7 samples.

Results

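The 10 genes described here encode enzymes that oxidise or reduce steroids: *Hsd3b2*, *Hsd3b3*, *Hsd3b5*, *Hsd3b7*, *Hsd11b1*, *Hsd17b2*, *Hsd17b6*, *Hsd17b13*, *Srd5a1* and *Akr1c6*. They are 10 of the 35667 gene names that the array's probes carry after symbols were updated, and were represented by 12 probes, all 12 of which passed the filter on dim probes. The genes were chosen by name with the difference between *Rbpj*-/- and *Rbpj*+/+ liver already known, so that difference is given below as a description and without a test. Whole liver of 7 untreated C57BL/6J mice was compared at the age of 4 weeks, with 1 array per animal. The *Rbpj*-/- group held 3 *AlfpCre*+ *Rbpj* flox/flox mice (-/-_N3, -/-_N5 and -/-_2866), whose livers the labels call cholestatic. The *Rbpj*+/+ group held 4 *AlfpCre*- *Rbpj* flox/flox mice (+/+_1155, +/+_1156, +/+_1024 and +/+_991) without cholestasis, so the floxed allele was present in all 7 animals and the Cre transgene in the *Rbpj*-/- animals only. The study used *AlfpCre*, driven by regulatory elements of the albumin and alpha-fetoprotein genes, for a liver-specific deletion, and whole liver also holds cells of other lineages. The effects of the deletion, of the transgene and of the cholestasis cannot be told apart in this design. Values are normalized log2 intensities, on which 0 is the 75th percentile of an array, and levels of different probes are not set against each other.

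Hydroxysteroid dehydrogenases move hydrogen between a steroid and a nicotinamide cofactor, and thereby switch a hydroxyl group to a keto group or back. 5alpha-reductases and aldo-keto reductases add hydrogen to steroid double bonds and keto groups. In liver these enzymes inactivate or reactivate circulating androgens, oestrogens and glucocorticoids, and some of them act on the precursors of bile acids or on retinoids. Several of them are known to differ between male and female mouse liver under the control of growth hormone.

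The brightest probe of *Rbpj*, the deleted gene, read 0.97, 0.29, 0.33 and 0.81 in the *Rbpj*+/+ animals (in the order +/+_1155, +/+_1156, +/+_1024 and +/+_991) and -0.35, -0.78 and -0.48 in the *Rbpj*-/- animals (-/-_N3, -/-_N5 and -/-_2866). The groups did not overlap, and *Rbpj* fell by 1.13 log2 units (SE 0.24, limma adjusted p = 0.0115). Whether this probe lies in the deleted exons was not looked up, so it checks the labels only in part. Between 41.1% and 64.9% of probes were detected per array, most on +/+_1156 and -/-_N3. The 7 arrays shared 1 slide, with the *Rbpj*+/+ arrays in one row and the *Rbpj*-/- arrays in the other, so row and genotype cannot be told apart. The Y-linked genes *Ddx3y*, *Eif2s3y* and *Uty* were well above background on 7 of 7 arrays and *Kdm5d* on 0, while *Xist* was on 1 of 7, the *Rbpj*+/+ animal +/+_1155 (-2.95, against -6.31 to -5.08 elsewhere). The labels give no sex, and sex was not used as a group.

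All 10 genes are among those called changed (limma, Benjamini-Hochberg adjusted p below 0.1), 8 lower and 2 higher in *Rbpj*-/- liver, and *Hsd3b5* passed the filter on dim probes only through the *Rbpj*+/+ arrays. Of all 18755 genes tested, 34.2% were called, 19.5% lower and 14.6% higher. The choice of the genes used this contrast, so nothing is read from their count. The median difference of the 10 genes was -1.30 log2 units, and that of all tested genes -0.13. After quantile normalization these medians were -1.09 and -0.04. The values of the genotypes were fully separated in 8 of the genes, with *Rbpj*-/- liver below in 7 and above in 1, and they overlapped in 2. Groups without overlap were found for 36.5% of all tested genes.

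**Figure D1:**
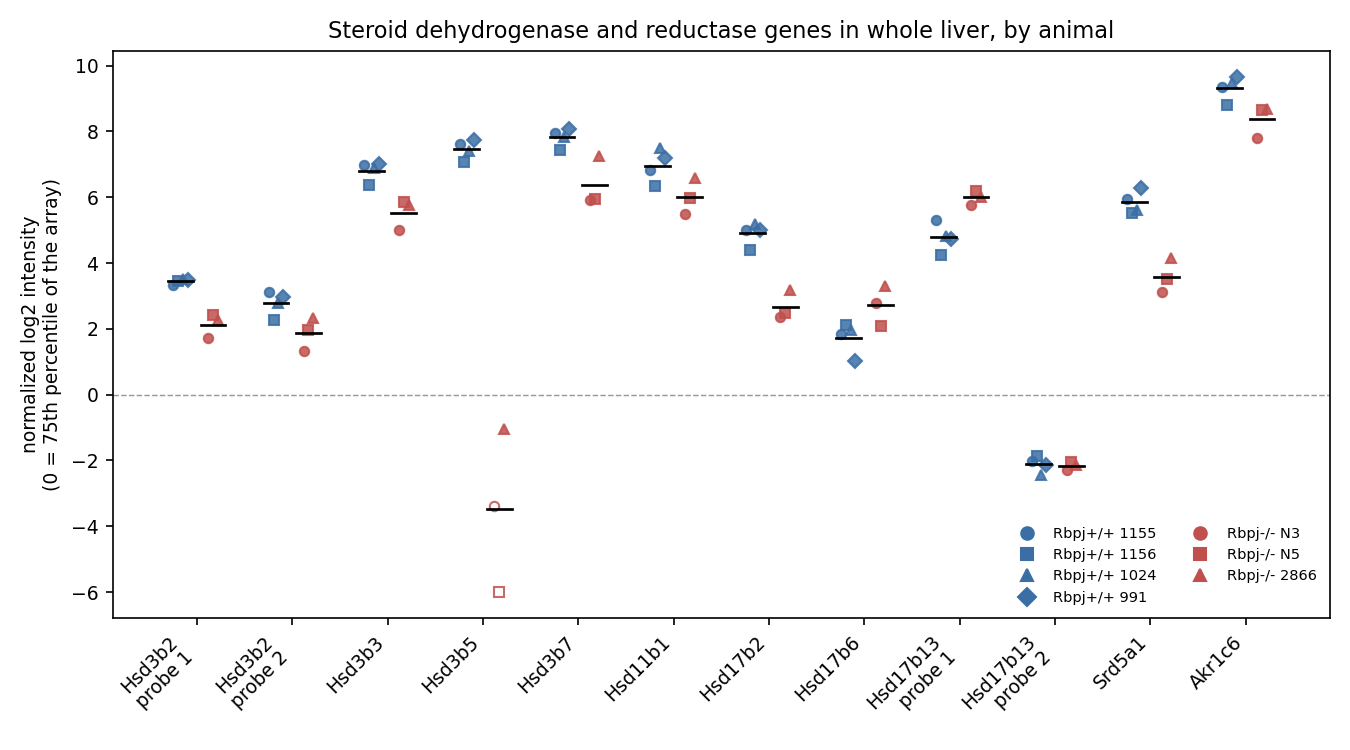
Normalized log2 intensity (vertical axis, 0 is the 75th percentile of the array) of the 12 probes of the 10 genes (horizontal axis) in each animal. Blue symbols are 4 Rbpj+/+ and red symbols 3 Rbpj-/- animals, black lines are group means, and open symbols were not well above background. *Hsd3b5* stands apart, with all 4 Rbpj+/+ animals at 7.08 or more and all 3 Rbpj-/- animals at -1.03 or less.

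The 3beta-hydroxysteroid dehydrogenases come first. *Hsd3b5*, a liver enzyme that reduces 3-keto steroids and is known as a male-biased gene in mice, had its probe at chr3:98422576-98422635 (mm9, the build of the array design). It read 7.63, 7.08, 7.41 and 7.75 in the *Rbpj*+/+ animals and -3.38, -6.0 and -1.03 in the *Rbpj*-/- animals. The 4 *Rbpj*+/+ values lay within 1 log2 unit of each other, and all 3 *Rbpj*-/- values were far below them. Before normalization the intensities were 20310, 11580, 9796 and 16160 against 13.7, 2.03 and 58.0. The group means were 7.47 ± 0.29 (SD, n = 4) and -3.47 ± 2.49 (SD, n = 3), a difference of -10.94 (SE 0.92), and this was the largest fall among the 18755 tested genes. Only 1 of the 3 *Rbpj*-/- arrays, -/-_2866, was well above background, and its value lay 361-fold below the *Rbpj*+/+ mean. With the dimmest signal well above background on each *Rbpj*-/- array in place of lower values, the *Rbpj*-/- mean was 1190-fold lower. A probe can be brighter than that signal and still not be well above background, so this is not a strict lower bound. The values of -/-_N3 and -/-_N5 were not well above background, so the distance between those animals is not a measured one.

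*Hsd3b2* and *Hsd3b3* are near neighbours of *Hsd3b5* that convert 3beta-hydroxy-5-ene steroids to 3-keto-4-ene steroids. The brighter *Hsd3b2* probe (chr3:98515054-98515113, mm9) read 3.33, 3.44, 3.52 and 3.49 in *Rbpj*+/+ and 1.71, 2.41 and 2.26 in *Rbpj*-/- liver. Its *Rbpj*+/+ values were the most uniform of all members (3.45 ± 0.08, SD, n = 4), the groups were 0.92 log2 units apart, and the difference was -1.32 (SE 0.21), 2.49-fold. A second probe (chr3:98515703-98515762) read 3.13, 2.27, 2.79 and 2.98 against 1.33, 1.98 and 2.33, so that the *Rbpj*+/+ animal +/+_1156 and the *Rbpj*-/- animal -/-_2866 overlapped, with a difference of -0.91 (SE 0.30). Both probes were thus lower in *Rbpj*-/- liver, but only the brighter one separated the animals completely. *Hsd3b3* (chr3:98545455-98545514) read 6.99, 6.36, 6.89 and 7.01 against 5.01, 5.85 and 5.75. No values overlapped, the nearest were 0.51 apart, and the difference of -1.28 (SE 0.27), 2.43-fold, was close in size to that of *Hsd3b2*.

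*Hsd3b7* is the member of this family that acts in bile acid synthesis, where it oxidises 7alpha-hydroxylated cholesterol derivatives. Its probe (chr7:134947251-134947310, mm9) read 7.94, 7.45, 7.82 and 8.08 in *Rbpj*+/+ and 5.93, 5.95 and 7.25 in *Rbpj*-/- animals. -/-_N3 and -/-_N5 were nearly the same and -/-_2866 lay much closer to the *Rbpj*+/+ range, 0.20 below its lowest value. The means were 7.82 ± 0.27 (SD, n = 4) and 6.38 ± 0.75 (SD, n = 3), with a difference of -1.44 (SE 0.34), 2.72-fold. Leaving -/-_2866 out moved the difference to -1.88.

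The *Hsd3b* genes other than *Hsd3b7* lie side by side on chromosome 3. By probe position their order is *Hsd3b4*, *Hsd3b5*, *Hsd3b2*, *Hsd3b3*, *Hsd3b6* and *Hsd3b1*. *Hsd3b6*, which was not among the 10 genes, read 1.08, 0.70, 0.72 and 0.78 against -0.09, -0.26 and -0.26 and fell by 1.02 log2 units (SE 0.18, limma adjusted p = 0.00677). The probes of *Hsd3b4* and *Hsd3b1* were well above background on 2 and 3 of 7 arrays and were not tested. The differences of *Hsd3b2*, *Hsd3b3* and *Hsd3b6*, which by probe position follow *Hsd3b5* on one side, lay between -1.32 and -1.02, beside the -10.94 of *Hsd3b5*. On its other side lies *Hsd3b4*, for which no difference was tested.

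**Figure D2:**
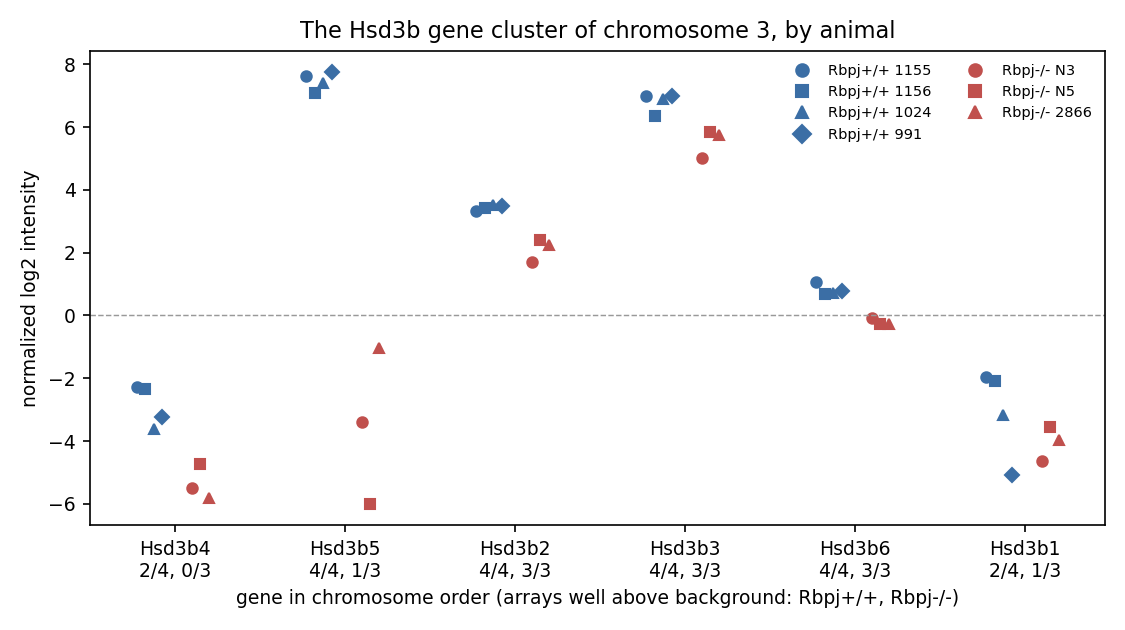
Normalized log2 intensity (vertical axis) of the 6 *Hsd3b* genes of the chromosome 3 cluster in the order of their probes (horizontal axis), by animal. Blue symbols are Rbpj+/+ and red symbols Rbpj-/- animals, and the numbers under each gene count the arrays well above background in each group. The differences of the group means are -1.32 in *Hsd3b2*, -1.28 in *Hsd3b3* and -1.02 in *Hsd3b6*. In *Hsd3b5* a gap between the nearest values lies from -1.03 to 7.08.

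Closely related genes can share a probe's signal, so the member probes were compared with the other probes of the array. No probe was compared with whole transcripts, so a short shared run does not show that a probe reads only its own gene. The probe of *Hsd3b5* and a probe of *Hsd3b4* share this run of 23 bases, shown because it is the longest run that any of the 12 member probes shares with a probe of another gene.
*Hsd3b5* and *Hsd3b4* probes: ATACCTTTATGAAGCTCAAAGAA
Since the *Hsd3b4* probe was well above background on 2 of the 4 *Rbpj*+/+ and 0 of the 3 *Rbpj*-/- arrays, both probes read low in *Rbpj*-/- liver. The brighter *Hsd3b2* probe and the *Hsd3b3* probe share 16 bases, and the other member probes shared at most 15 with any probe of another gene.

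The sequence before the transcription start was read from the RefSeq promoter table (GRCm38.p6), which held 11 windows for 9 of the 10 genes and none for *Hsd17b2*. The windows used here are the 250 bases before the start. *Hsd3b3* and *Hsd3b5* are printed together because, of the windows compared, theirs were the most alike, while their differences between the genotypes were -1.28 and -10.94. In the alignment 153 bases were identical over 203 aligned columns, 75.4%. Among 102 window pairs of different genes, including *Hsd3b1*, *Hsd3b4* and *Hsd3b6*, only 4 aligned over 50 columns or more, and the other gene pair among them was *Hsd3b3* with *Hsd3b4* (65.4% over 52 columns). Capitals mark the bases that are identical in the alignment, and both run 5′ to 3′ on the minus strand.
*Hsd3b5*, chr3:98645535-98645784: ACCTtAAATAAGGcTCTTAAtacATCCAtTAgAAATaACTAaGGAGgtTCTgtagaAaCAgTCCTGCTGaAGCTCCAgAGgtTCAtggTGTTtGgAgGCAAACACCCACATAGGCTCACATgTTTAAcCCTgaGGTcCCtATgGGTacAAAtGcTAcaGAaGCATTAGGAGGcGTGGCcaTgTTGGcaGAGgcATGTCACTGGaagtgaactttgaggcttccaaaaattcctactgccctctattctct
*Hsd3b3*, chr3:98762411-98762660: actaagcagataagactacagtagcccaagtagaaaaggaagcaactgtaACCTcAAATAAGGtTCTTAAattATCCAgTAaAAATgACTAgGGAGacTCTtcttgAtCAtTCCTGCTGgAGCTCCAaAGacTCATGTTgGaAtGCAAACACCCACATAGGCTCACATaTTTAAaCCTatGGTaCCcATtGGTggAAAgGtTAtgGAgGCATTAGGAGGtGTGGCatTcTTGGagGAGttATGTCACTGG
The aligned stretch ends 48 bases before the annotated start of *Hsd3b5* and at the last base before that of *Hsd3b3*. These are windows of the reference sequence, and whether either start is used in these livers was not measured.

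Letters of 4 motifs were searched for on both strands of the same windows, and the share of all 32841 windows in the table that hold each is given for scale. TTCNNNGAA, the core of STAT5 sites, was in 7.02% of all windows and in 1 of the 11 member windows, that of *Hsd3b7*. GTGGGAA, the core bound by RBPJ, was in 5.41% of all windows and in 1 member window, that of *Hsd3b2*. TATAAA was in 12.4% of all windows and in 1 member window, that of *Akr1c6*, and CAAAGTCCA, an HNF4 core, was in 0.38% of all and in 0 of the 11. The 2 windows with STAT5 and RBPJ letters are printed with the matched letters in capitals, which lie 13 to 21 bases before the start of *Hsd3b7* and 169 to 175 bases before that of *Hsd3b2*, there on the opposite strand. A match says nothing of binding.
*Hsd3b7*, chr7:127800359-127800608, plus strand: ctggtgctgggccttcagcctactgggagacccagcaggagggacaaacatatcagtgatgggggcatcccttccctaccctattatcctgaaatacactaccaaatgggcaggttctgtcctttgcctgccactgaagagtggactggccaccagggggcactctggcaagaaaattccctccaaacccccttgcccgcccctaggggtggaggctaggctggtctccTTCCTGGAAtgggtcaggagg
*Hsd3b2*, chr3:98724544-98724793, minus strand: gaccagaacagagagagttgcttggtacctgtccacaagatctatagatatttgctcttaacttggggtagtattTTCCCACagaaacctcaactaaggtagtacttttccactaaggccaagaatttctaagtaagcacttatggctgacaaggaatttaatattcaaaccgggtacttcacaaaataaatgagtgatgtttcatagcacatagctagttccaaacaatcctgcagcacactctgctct

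*Hsd11b1* encodes the enzyme of liver that turns inert 11-keto glucocorticoids back into active corticosterone. Its probe (chr1:195048169-195048228, mm9) was printed 10 times on each array and read, as the mean of its spots, 6.83, 6.33, 7.49 and 7.19 in *Rbpj*+/+ and 5.48, 5.97 and 6.59 in *Rbpj*-/- animals. The *Rbpj*-/- animal -/-_2866 lay above the *Rbpj*+/+ animal +/+_1156, so the groups overlapped, while -/-_N3 and -/-_N5 lay below all others. The difference was -0.94 (SE 0.34), 1.92-fold. The SD between the 10 spots of an array was 0.02 to 0.09 log2 units, against 0.50 and 0.55 between the animals of each genotype, so the spots of an array differed much less than the animals.

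*Hsd17b2* oxidises oestradiol and testosterone to their less active 17-keto forms. Its probe (chr8:120282508-120282567, mm9) read 5.02, 4.41, 5.18 and 5.01 in *Rbpj*+/+ and 2.37, 2.49 and 3.17 in *Rbpj*-/- animals. The lowest *Rbpj*+/+ value was 1.24 log2 units above the highest *Rbpj*-/- value. The means were 4.90 ± 0.34 (SD, n = 4) and 2.68 ± 0.43 (SD, n = 3), and the difference was -2.23 (SE 0.27), 4.68-fold.

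*Hsd17b6* and *Hsd17b13* were the members with higher values in *Rbpj*-/- liver. *Hsd17b6* belongs to a group of dehydrogenases that also use retinol, and its probe (chr10:127431580-127431639, mm9) read 1.83, 2.12, 1.98 and 1.01 against 2.80, 2.08 and 3.31. The *Rbpj*-/- animal -/-_N5 lay inside the *Rbpj*+/+ range, and the other two lay above it. The difference was 1.0 (SE 0.35), 1.99-fold, and it ranged from 0.70 to 1.32 when each animal was left out in turn.

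*Hsd17b13* encodes a protein on the surface of lipid droplets in hepatocytes, and its probes did not read alike. The brighter probe (chr5:104392792-104392851, mm9), which starts at base 916 of the transcript, read 5.32, 4.25, 4.81 and 4.74 in *Rbpj*+/+ and 5.78, 6.18 and 6.02 in *Rbpj*-/- animals. There was no overlap, with the nearest values 0.47 apart, and the difference was 1.22 (SE 0.26), 2.32-fold. The dimmer probe (chr5:104384701-104384760), which starts at base 1430, read -2.03, -1.85, -2.43 and -2.14 against -2.29, -2.04 and -2.14, a difference of -0.04 (SE 0.20). Before normalization the dimmer probe read only 10.6 to 31.6 and the brighter one 1616 to 9435. The dimmer probe was called well above background on every array, but a signal this low may not follow the level of the gene. The higher level of *Hsd17b13* thus rests on its brighter probe, and the mean of both, which weighs them equally, gave a difference of 0.59.

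*Srd5a1* encodes the main 5alpha-reductase of liver, which acts on testosterone, progesterone and glucocorticoids. Its probe (chr13:69712376-69712435, mm9) read 5.95, 5.52, 5.61 and 6.29 in *Rbpj*+/+ and 3.11, 3.52 and 4.14 in *Rbpj*-/- animals. The groups were 1.39 log2 units apart, which after *Hsd3b5* was the widest separation among the 10 genes. The means were 5.84 ± 0.35 (SD, n = 4) and 3.59 ± 0.52 (SD, n = 3), and the difference was -2.25 (SE 0.29), 4.77-fold. *Akr1c6*, a cytosolic aldo-keto reductase with 17beta-hydroxysteroid dehydrogenase activity (chr13:4456428-4456487), read 9.35, 8.79, 9.48 and 9.67 against 7.79, 8.65 and 8.67. Its groups were separated by only 0.12 log2 units, and the difference was -0.95 (SE 0.30), 1.94-fold. Quantile normalization moved the difference of *Akr1c6* to -0.50.

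**Figure D3:**
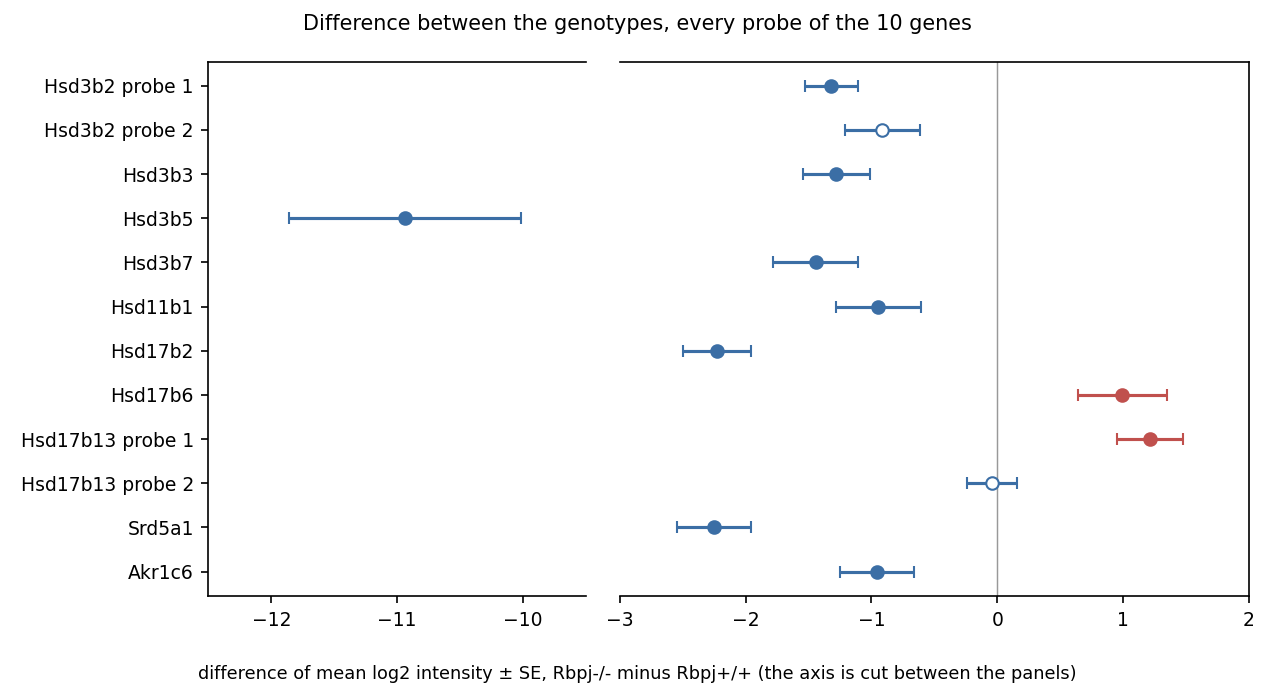
Difference of mean log2 intensity, Rbpj-/- minus Rbpj+/+ (horizontal axis, cut between the panels at equal scale), for the 12 probes of the 10 genes (vertical axis), with the SE from limma as bars. Filled symbols are each gene's brightest probe and open symbols a second probe, blue is lower and red higher in Rbpj-/- liver. *Hsd3b5* lies at -10.94, *Srd5a1* and *Hsd17b2* near -2.2, and the second *Hsd17b13* probe at -0.04.

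Individual animals kept similar places across the genes. Among the 8 genes with lower values in *Rbpj*-/- liver, -/-_N3 was the lowest *Rbpj*-/- animal in 7 and -/-_2866 the highest in 6. The *Rbpj*+/+ animal +/+_1156 was the lowest of its group in 7 of the same 8. Among all genes called lower, these places were held by -/-_N3 in 54.4%, by -/-_2866 in 59.3% and by +/+_1156 in 42.8%. Among all tested genes the shares were 46% for -/-_N3, 37% for -/-_2866 and 52.1% for +/+_1156, so such places are not particular to the 10 genes. The median difference of the 8 genes from the *Rbpj*+/+ mean was -1.85 in -/-_N3, -1.45 in -/-_N5 and -1.13 in -/-_2866. -/-_N3 and +/+_1156 are also the arrays on which most probes were detected, and the part of this in their values was not tested. Without both arrays, an alternative added after the data were seen, all 10 differences kept their direction and their median was -1.14. The pooled SD within the genotypes was 0.24 (*Hsd3b2*) to 0.55 (*Hsd17b6*) in 9 of the genes and 1.59 in *Hsd3b5*, against a median of 0.31 over all tested genes.

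**Figure D4:**
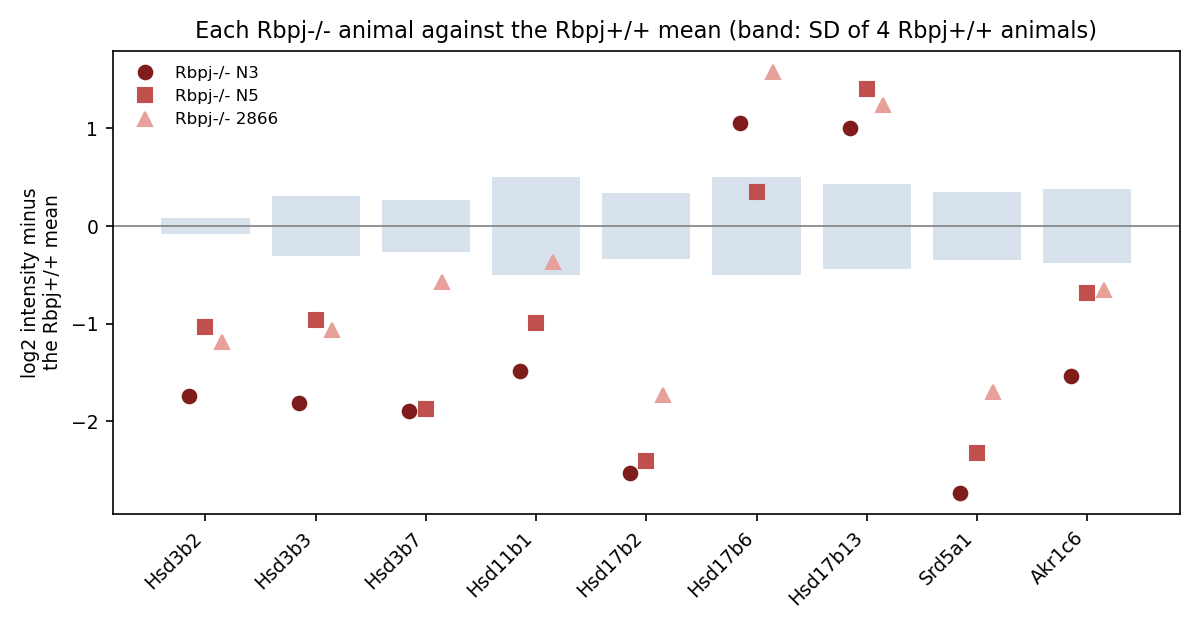
Log2 intensity of each Rbpj-/- animal minus the Rbpj+/+ mean (vertical axis) for the members other than *Hsd3b5* (horizontal axis), with the SD of the 4 Rbpj+/+ animals as a band. -/-_N3 (dark circles) is the lowest in most genes, -/-_2866 (light triangles) lies nearest to 0 in *Hsd3b7* and *Hsd11b1*, and -/-_N5 (squares) lies inside the band in *Hsd17b6*.

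The relatives of the 10 genes were counted from lists that hold none of them. Of 33 genes in 3 lists, 24 were tested, 7 fell and 5 rose, so 12 of 24 were called against 34.2% of all tested genes. The lists were chosen with earlier results of these data known, so nothing is read from that count. Their median difference was -0.20. Among the other hydroxysteroid dehydrogenases, 5 of 9 tested genes fell, 1 rose and 3 did not pass. Those that fell were *Hsd3b6* (above), *Hsd17b12* of fatty acid elongation (-0.94, SE 0.23, limma adjusted p = 0.0205), the peroxisomal *Hsd17b4* (-0.80, SE 0.21, limma adjusted p = 0.0265), *Hsd17b8*, named *H2-Ke6* after symbols were updated (-0.80, SE 0.22, limma adjusted p = 0.0311), and the mitochondrial *Hsd17b10* (-0.65, SE 0.24, limma adjusted p = 0.0822). *Hsdl1* rose by 1.36 (SE 0.32, limma adjusted p = 0.0182), with 3 of 4 *Rbpj*+/+ arrays well above background, and by 0.13 with adjusted p = 0.403 after limma on normexp-corrected values. These changes are smaller than those of *Hsd17b2* and *Srd5a1*, but that difference in size was not tested.

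*Hsd17b6* has its nearest relatives among the retinol dehydrogenases, and these went both ways. *Rdh9* rose by 2.27 (SE 0.28, limma adjusted p = 0.00154) and *Rdh5* by 1.01 (SE 0.23, limma adjusted p = 0.0167). *Sdr9c7* fell by 3.03 log2 units (SE 0.40, limma adjusted p = 0.00202) and *Rdh7* fell by 0.79 log2 units (SE 0.21, limma adjusted p = 0.029). The remaining 2 tested genes of 6, *Rdh1* (0.60, SE 0.42) and *Rdh16* (0.40, SE 0.28), did not pass. In the reductase list that *Srd5a1* and *Akr1c6* belong to by function, 2 of 9 tested genes rose, 0 fell and 7 did not pass. *Akr1c20* differed by -0.71 (SE 0.32) without passing, and by -1.17 as the mean of its probes (limma adjusted p = 0.0643). Calls as lower were gained by *Akr1c20* without +/+_1156 (limma adjusted p = 0.0566) and by *Akr1c12* without -/-_2866 (limma adjusted p = 0.0955). *Akr1d1*, the 5beta-reductase of bile acid synthesis, rose by 0.85 (SE 0.33, limma adjusted p = 0.0905) and *Akr1c19* by 0.78 (SE 0.29, limma adjusted p = 0.0812). *Srd5a2* and *Srd5a3*, the other 5alpha-reductase genes, differed by 0.57 (SE 0.31) and 0.02 (SE 0.22) and did not pass, beside the -2.25 of *Srd5a1*. Leaving out single animals ended the call of *Akr1d1* (all but -/-_N3), *Akr1c19* (+/+_1155, +/+_1156, +/+_1024, -/-_N5 or -/-_2866), *Hsd17b10* (+/+_1024, +/+_991, -/-_N3 or -/-_N5), *H2-Ke6* (-/-_N3, adjusted p = 0.105 by limma) and *Hsd17b4* (-/-_N5, adjusted p = 0.104 by limma).

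**Figure D5:**
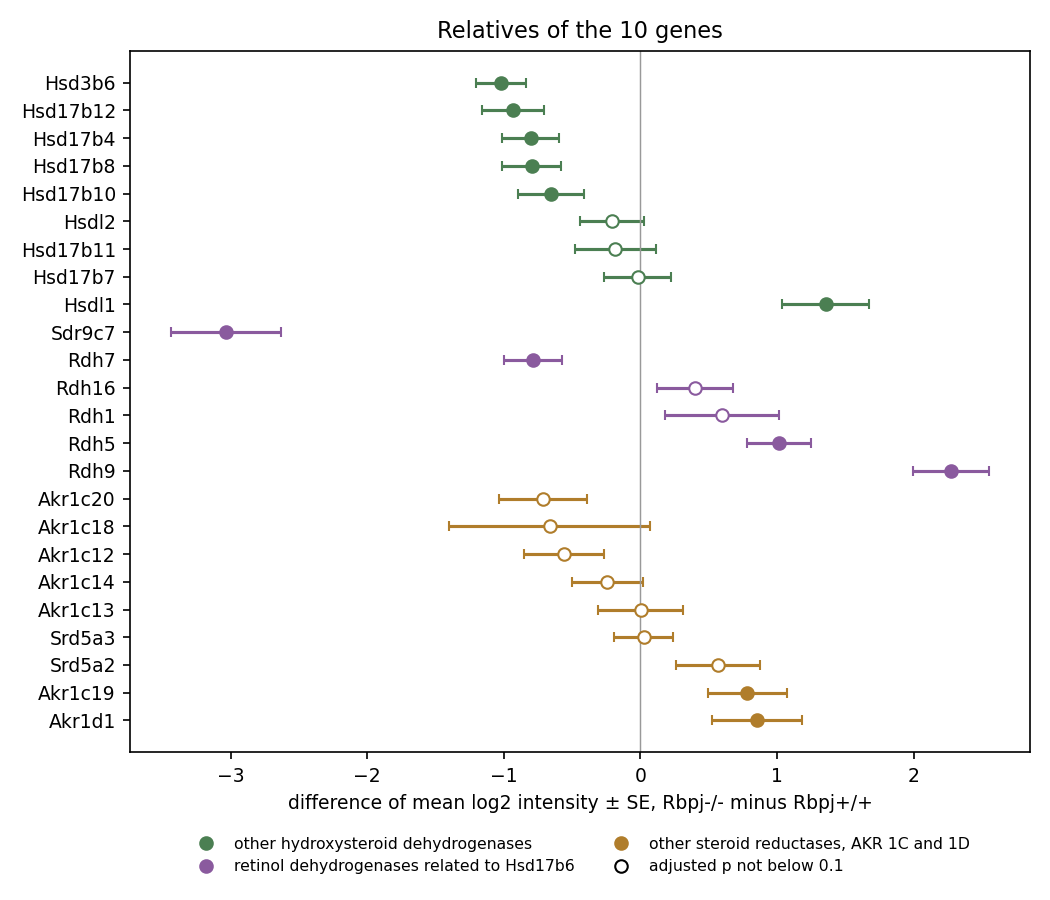
Difference of mean log2 intensity with its SE, Rbpj-/- minus Rbpj+/+ (horizontal axis), for the 24 tested relatives of the 10 genes (vertical axis), coloured by list. Filled symbols passed the adjusted p of 0.1. The largest changes are those of *Sdr9c7* (-3.03) and *Rdh9* (2.27), and 12 of the 24 symbols are open.

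These enzymes depend on reduced or oxidised cofactor, and 7 genes of cofactor supply were examined beside them. Of the 7, 3 fell, 2 rose and 2 did not pass, where 34.2% of all tested genes were called. *H6pd*, which supplies reduced cofactor to the *Hsd11b1* enzyme inside the endoplasmic reticulum, fell by 0.96 log2 units (SE 0.22, limma adjusted p = 0.0159), close to the -0.94 of *Hsd11b1* itself. The largest change of the list was in *Me1*, the cytosolic malic enzyme, which fell by 2.07 log2 units (SE 0.54, limma adjusted p = 0.0264).

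Levels of cell type markers moved with genotype in the same arrays. In bulk tissue, fewer cells of a type and less RNA per cell cannot be told apart. The summed linear level of 10 hepatocyte markers was 4460 to 6050 in *Rbpj*+/+ and 2980 to 3330 in *Rbpj*-/- animals, and 8 of the 10 fell, with a median difference of -0.68, all 10 being well above background on every array. The 8 macrophage markers summed to 113 to 147 against 386 to 493, and 7 of 8 rose. Of 7 tested cholangiocyte markers, 3 rose and 4 did not pass. Those that rose were *Prom1* (2.66, SE 0.46, limma adjusted p = 0.0059), *Spp1* (1.66, SE 0.37, limma adjusted p = 0.0145) and *Sox9* (1.32, SE 0.49, limma adjusted p = 0.0842, with overlapping groups), while *Krt19* and *Krt7* were among those that did not pass and *Epcam* was too dim to test. Sums for stellate cells were 93.4 to 160 against 170 to 190 (4 of 7 rose), for endothelial cells 50 to 72.3 against 77.4 to 122 (1 of 5 rose, 1 fell), for neutrophils 4.97 to 22.1 against 31.0 to 66.5 (2 of 4 rose, 1 fell) and for lymphocytes 24.3 to 34.6 against 7.79 to 14.7 (1 of 5 rose, 4 fell). Such sums are carried by their brightest probes. The stellate sum rests mostly on *Dcn*, which did not pass (0.49, SE 0.26). That of lymphocytes rests mostly on *Cd4*, which fell by 1.54 log2 units (SE 0.31, limma adjusted p = 0.0109). The part of these shifts in the differences of the 10 genes was not tested. Beside the hepatocyte markers' median of -0.68, *Hsd17b6* and *Hsd17b13* differed by 1.0 and 1.22. The differences were -0.94 for *Hsd11b1*, -0.95 for *Akr1c6*, -1.28 for *Hsd3b3*, -1.32 for *Hsd3b2* and -1.44 for *Hsd3b7*. They were -2.23, -2.25 and -10.94 for *Hsd17b2*, *Srd5a1* and *Hsd3b5*. Single hepatocyte markers differed too, and *Cps1* was higher by 0.94 (SE 0.45) without passing.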

How the data were processed

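RNA of whole liver from 7 mice was hybridised to Agilent mouse oligonucleotide arrays with 1 dye. The authors deposited the output of Feature Extraction 10.7.3.1, whose background-subtracted intensity values per spot are not normalized between arrays, and a series matrix of log2 values, which per the methods were shifted to a percentile and centred on each probe's median. The matrix gave nearly the same differences as quantile normalization and not those of the percentile shift, so its scaling is unsettled. Control spots and spots marked as outliers were left out (1186 spot values), spots of a probe were averaged as log2, and each array was set to a 75th percentile of 0. Probes detected on all arrays of at least 1 genotype (24548) were tested for a difference between the genotypes (limma 3.58.1, R 4.3.3), and p-values were adjusted over all of these probes by the Benjamini-Hochberg method, with 0.1 as threshold. The brightest tested probe stood for a gene. The labels do not say how animals were related, and precision is limited by having only 7 arrays. Members and lists were chosen with earlier results of these data known. Named beyond the members were called genes of the first 3 lists, the 2 called genes with the largest change in each other list, the sex-linked genes and *Rbpj*. Uncalled relatives, untested *Hsd3b* neighbours and cell type markers were named after their values were seen. Names were matched to RefSeq by accession for 28331 probes, by symbol for 2209, by synonym for 173, and 24968 kept the array's name. Sequences were aligned with Biopython 1.88 in Python 3.11.15, and figures drawn with matplotlib 3.10.9. The steps were tested on simulated data. Alternatives are given in the closing section. Protein sequences were not used here. The summed level of the cholangiocyte markers is not reported here.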

Additional observations from a re-analysis of the deposited data

Results flagged for a closer look

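Among 24 groups of 4 *Rbpj*+/+ values examined, those of the 12 member probes and the called relatives, 1 held an animal far from the others. It was *Akr1d1* in animal +/+_1156, at 0.41 where the other 3 lay between 1.38 and 1.58, so that the gap made up 0.83 of the group's range. Chance marks about 1 in 20 groups in this way. Without +/+_1156 the difference of *Akr1d1* was 0.59, in place of 0.85, and no longer passed (limma adjusted p = 0.114, and 0.0212 to 0.344 over all alternatives). No member probe was marked.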

How the results depend on the processing

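Each member kept its direction under every alternative that gave it a value: normexp background correction, quantile normalization, another percentile, 2 other filters on dim probes, outlier spots kept, array weights, the series matrix, the mean of a gene's probes, the omission of each animal, and *Xist* as a covariate. The range was widest for *Hsd3b5* (-12.16 to -7.91, the latter with normexp). Those of the others were -1.88 to -1.12 (*Hsd3b7*), -1.46 to -1.11 (*Hsd3b2*), -1.43 to -1.01 (*Hsd3b3*), -1.23 to -0.67 (*Hsd11b1*), -2.47 to -1.88 (*Hsd17b2*), 0.70 to 1.32 (*Hsd17b6*), 0.59 to 1.57 (*Hsd17b13*), -2.53 to -1.92 (*Srd5a1*) and -1.13 to -0.48 (*Akr1c6*, the last in the series matrix). The median of the members ranged from -1.38 to -1.06 when each animal was left out. Counts of calls moved more. Without a filter on dim probes, 968 genes were called higher and 671 lower in place of 2741 and 3665, and of the relatives 1 higher and 3 lower in place of 5 and 7. At an adjusted p below 0.05, 2382 genes were lower and 3 relatives higher, and the shrinkage t also gave 3 relatives higher. With *Xist* as a covariate, 1934 genes were lower, and 3 relatives were higher and 3 lower. *Xist* was well above background on 1 of 7 arrays only, so this covariate mainly sets +/+_1155 apart and is not an adjustment for sex. When each animal was left out, 2000 to 4343 genes were lower, the lowest without -/-_N5 (2167 without +/+_1024 and 2423 without -/-_N3), 1859 to 2742 were higher, and 3 to 5 relatives were higher and 5 to 8 lower. The count of 3 higher relatives came without +/+_1155, +/+_1156, +/+_1024, -/-_N5 or -/-_2866. Quantile normalization called 3117 genes higher and 2846 lower. The causes were not tested. No paired analysis was possible because the genotypes share no replicate number.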

Other observations

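Other genes of steroid and bile acid handling were read from the same arrays, from lists fixed with earlier results known. For scale, 19.5% of all tested genes were called lower and 14.6% higher. Of 12 tested genes of steroid conjugation, 7 fell and 3 rose. The sulfotransferase genes *Sult2a1* and *Sult2a2* rose by 9.77 (SE 0.87, limma adjusted p = 0.000428) and 9.61 (SE 0.89, limma adjusted p = 0.000487), each well above background on 2 of 4 *Rbpj*+/+ and 3 of 3 *Rbpj*-/- arrays, so the size of these differences rests in part on signals near background. The probes of these related genes may share signal, which was not examined. Of 13 tested genes of bile acid synthesis, 5 fell and 2 rose. *Cyp7b1*, which hydroxylates oxysterols and steroids, fell by 4.58 log2 units (SE 0.36, limma adjusted p = 0.000265), and *Cyp7a1*, the rate-limiting enzyme of bile acid synthesis, rose by 2.02 (SE 0.53, limma adjusted p = 0.0265). Of 3 tested steroidogenic genes only *Nr5a1* was called, and it fell by 1.47 log2 units (SE 0.34, limma adjusted p = 0.0166).

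In the growth hormone axis 6 of 8 tested genes fell and 0 rose, with a median difference of -1.72. Beside this, 19.5% of all tested genes and 8 of 10 hepatocyte markers were called lower. *Igfals* fell by 4.58 log2 units (SE 0.45, limma adjusted p = 0.000616) and *Socs2* fell by 3.11 log2 units (SE 0.39, limma adjusted p = 0.0017). Of 11 tested steroid receptor and glucocorticoid target genes, 2 rose, 2 fell and 7 did not pass. *Sgk1* rose by 1.99 (SE 0.29, limma adjusted p = 0.00288) and *Per1* by 1.87 (SE 0.56, limma adjusted p = 0.0434), the latter with overlapping groups. Of 9 lipid droplet genes, 3 rose and 1 fell. *Cidea* was higher in *Rbpj*-/- liver (limma adjusted p = 0.00174), with 0 of 4 *Rbpj*+/+ arrays well above background. It was 10.3-fold higher with the dimmest signal well above background in place of lower *Rbpj*+/+ values, which is not a strict lower bound. *Cidec* rose by 1.31 (SE 0.31, limma adjusted p = 0.0178).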
